A study of Mus musculus with 2 samples.

Results

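Chemokines are small secreted proteins that direct the movement of leukocytes, and 10 chemokine ligand genes were followed here of the 19070 genes counted in each section: Ccl2, Ccl7, Ccl12, Ccl3, Ccl4, Ccl5, Ccl6, Cxcl10, Cxcl16 and Cxcl12. They were taken by name, with earlier results of these data known, and each had a row of its own in both sections. Counts of ligands set beside the share of all genes are therefore descriptions. The study placed a controlled cortical impact (CCI), a piston strike on the exposed cortex of a single side, on male C57Bl6 mice aged 3 months, and took the brain 3 days or 28 days later. Each time point was 1 coronal section of formalin-fixed, paraffin-embedded brain on Visium HD, an assay in which probe pairs hybridised to transcripts are counted as unique molecular identifiers (UMIs) on a grid of barcoded squares of 16 µm, called bins. No drug or genetic change was given in the labels for either animal, and no uninjured brain was measured, so the opposite side of the same section was the reference. With 1 section per time point, the spread between animals is unknown and no test was made. Levels are given as CPM, the UMIs of a gene relative to all UMIs of the area on the usual common scale of counts, and intervals in brackets are 95% intervals that cover counting error only.

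Chemokine ligands act through G protein-coupled receptors on the attracted cell. Ccl2, Ccl7 and Ccl12 bind Ccr2 and bring monocytes out of the blood. Ccl3, Ccl4 and Ccl5 attract phagocytes and T cells, and Ccl3, Ccl5 and Ccl6 bind Ccr1. Cxcl10 is induced by interferons and attracts activated T cells through Cxcr3. Cxcl16 is made as a membrane-bound protein that can be shed by Adam10 and binds Cxcr6. Cxcl12 is a constitutive ligand of Cxcr4, made in the brain by vessels, meninges and granule neurons of the dentate gyrus, and Ackr3 takes it up. In the injured brain, microglia, astrocytes and incoming macrophages are all known sources of CC chemokines.

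Of the 10 genes, 8 lie on mouse chromosome 11 (GRCm38.p6, the build that matches the submitters' mm10). Ccl2 (chr11:82035577-82037452), Ccl7 (chr11:82045712-82047525) and Ccl12 (chr11:82101845-82103399) span 67.8 kb, and Ccl5 (chr11:83525778-83530518), Ccl6 (chr11:83587886-83593087), Ccl3 (chr11:83647843-83649378) and Ccl4 (chr11:83648624-83664683) span 138.9 kb. The RefSeq spans of Ccl3 and Ccl4 overlap by 755 bases. The probe sequences were not analysed here, so cross-hybridisation between these related genes was not tested. Cxcl16 lies apart on the same chromosome (chr11:70454389-70459984), Cxcl10 lies on chromosome 5 (chr5:92346638-92348889) and Cxcl12 on chromosome 6 (chr6:117168535-117181368).

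The injured side was array columns below 130 at 3 days and below 240 at 28 days. Bins with at least 100 UMIs were kept, which gave 39116 injured-side and 80501 opposite-side bins at 3 days and 49478 and 53838 at 28 days. Injured-side bins were shallower, with medians of 804 and 871 UMIs per bin at 3 days and of 564 and 657 in the 28 days section. At 3 days the array captured 2.08 mm of the injured side, which ended at the array border, against 4.62 mm of the opposite side. At 28 days tissue was missing from the injured side, and the edge of the section with this cavity is called dorsal here. Both sections used the same grid, and 84781 array positions were occupied in both. Brain markers were present, with the neuron list at 3846 CPM and the oligodendrocyte list at 5663 CPM on the injured side at 3 days. A bin can hold parts of several cells, and more cells of a type and more RNA per cell cannot be told apart.

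The first comparison asked which ligands were focal. At 3 days, 9 of the 10 ligands were at least 2-fold higher on the injured side, against 10.5% of the 16164 genes that reached 20 UMIs. The count at 28 days was again 9 of 10, against 6.43% of 15640 genes. The median log2 ratio of injured over opposite side was 2.55 over the ligands and 0.14 over all tested genes at 3 days, and 2.44 and 0.04 at 28 days. The exception at both times was Cxcl12, with log2 ratios of 0.32 (0.23 to 0.40) and 0.28 (0.18 to 0.38). None of the 10 was 2-fold lower on the injured side, against 2.12% of all genes at 3 days and 0.582% at 28 days.

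The highest side ratios at 3 days belonged to Cxcl10, Ccl2 and Ccl7. Cxcl10 had 746 injured-side and 124 opposite-side UMIs at 3 days, or 19.9 and 1.5 CPM, a 13.2-fold difference (log2 3.73, 3.46 to 4.02). Ccl2 had 466 and 89 UMIs, 12.4 and 1.07 CPM, an 11.5-fold difference (log2 3.52, 3.20 to 3.87). Ccl7 had 188 and 43 UMIs, or 5.00 and 0.52 CPM. Among all tested genes these 3 ranked 17, 23 and 32 by ratio. At 28 days Ccl6 and Ccl5 led instead. Ccl6 had 157 injured-side and 22 opposite-side UMIs at 28 days, 4.23 and 0.49 CPM, with a log2 ratio of 3.09 (2.47 to 3.83). Ccl5 had 161 and 23 UMIs, with a log2 ratio of 3.06 (2.45 to 3.79). At 3 days these ligands had the lowest ratios beside Cxcl12, 1.53 (1.08 to 1.99) for Ccl6 and 1.79 (1.33 to 2.26) for Ccl5. Each ratio is relative to the opposite side of its own section. With the opposite side at 3 days limited to the width of the injured side, the log2 ratio of Ccl12 was 2.07 in place of 2.77 and that of Ccl2 was 2.93.

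**Figure D1:**
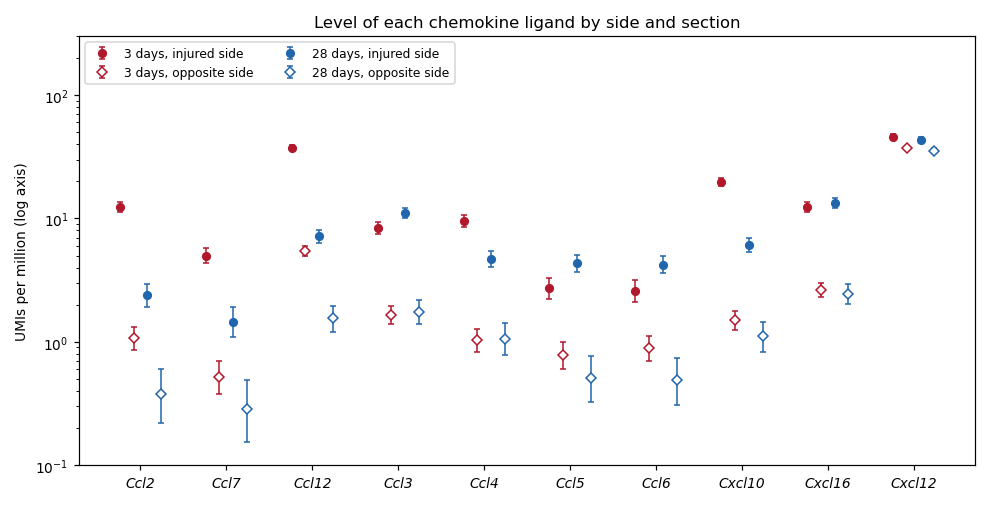
Level of each ligand in CPM (log axis) on the injured side (filled circles) and the opposite side (open diamonds) of the 3 days (red) and 28 days (blue) sections; bars are exact Poisson 95% intervals. The sides of Cxcl12 lie close together (46.1 and 37.0 at 3 days), while those of the other ligands are at least 2-fold apart in both sections.

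Cell markers moved with the side as well. The phagocyte lists were higher on the injured side: all 6 measured genes of monocyte-derived macrophages and 5 of 6 of disease-associated phagocytes were at least 2-fold higher at 3 days, and 4 of 6 and 6 of 6 at 28 days. The summed level of the former was 38.0 against 2.62 CPM at 3 days and 9.56 against 1.95 at 28 days. That of the latter was 227 against 52.0 at 3 days and 857 against 52.4 at 28 days. The microglia list, by contrast, had 0 of 6 genes past 2-fold at 3 days and 1 of 6 at 28 days, with sums of 421 against 243 and 525 against 232. The summed neuron list had log2 ratios of -0.64 and -0.45. Its genes did not all go the same way at 3 days, when they ran from -1.77 to 0.70 with 2 of 6 intervals above 0, while at 28 days all 6 were below 0. Other lists were also higher by side. Of the fibroblast list, 5 of 5 genes at 3 days and 4 of 5 at 28 days were at least 2-fold higher on the injured side, with sums of 245 against 78.5 CPM at 3 days and 147 against 55.6 in the later section. Of the choroid plexus list, 5 of 5 were at 3 days (7185 against 1369 CPM) and 0 of 5 at 28 days (5088 against 2979). Of 6 neutrophil markers, 3 reached 20 UMIs at 3 days and all 3 were past 2-fold (9.18 against 1.17 CPM), as were 3 of 4 at 28 days (14.2 against 4.12). The part of these differences in cell content in the ligand ratios was not tested.

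Set side by side, the injured sides differed in which ligands they held. Between 3 and 28 days, 5 of the 10 ligands (Ccl2, Ccl7, Ccl12, Ccl4 and Cxcl10) were at least 2-fold lower at 28 days, against 2.79% of 15587 genes. No ligand was 2-fold higher, against 2.15% of all genes. The median log2 difference was -0.55 over the ligands and -0.06 over all tested genes. Ccl12 was at 37.5 CPM at 3 days and 7.19 at 28 days, and Ccl2 at 12.4 and 2.40. Their log2 differences were -2.38 (-2.58 to -2.19) and -2.36 (-2.72 to -2.04). Cxcl10 went from 19.9 to 6.06 and Ccl7 from 5.00 to 1.45. Ccl4 was at 9.53 and 4.71, a log2 difference of -1.01 (-1.28 to -0.75) that lay at the 2-fold line.

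The other ligands were within 2-fold between the whole injured sides. Ccl3 had 8.41 CPM on the injured side at 3 days and 11.1 at 28 days (log2 difference 0.40, 0.18 to 0.61). Ccl5 had 2.72 and 4.34 (0.67, 0.31 to 1.05), and Ccl6 had 2.58 and 4.23 (0.71, 0.34 to 1.09). Cxcl16 at 12.4 and 13.4 and Cxcl12 at 46.1 and 43.3 had intervals of the difference that held 0. Counted per bin and not per UMI, these differences were lower, with Ccl3 at 0.04 and Cxcl16 at -0.25, while the same 5 genes as above were past 2-fold. This result differed with the area compared. The array held 2.08 mm of the injured side at 3 days and 3.84 mm at 28 days, and the part of this width was not tested. In bins within 150 µm of phagocyte-rich bins, defined below, 3 of the 10 ligands were at least 2-fold lower at 28 days (Ccl2, Ccl7 and Ccl12), against 7.56% of 13580 genes, and 3 were at least 2-fold higher (Ccl3, Ccl5 and Ccl6), against 5.03%. There Ccl3 was 2.33-fold, Ccl5 2.22-fold and Ccl6 2.40-fold higher at 28 days, while Ccl4 was 1.69-fold and Cxcl10 1.38-fold higher at 3 days. On the whole side, Cxcl10 was 3.27-fold higher at 3 days.

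On the uninjured side 2 of the 10 ligands were at least 2-fold lower at 28 days, against 1.03% of 16185 genes, and none was 2-fold higher, against 1.52%. Ccl12 was at 5.48 and 1.55 CPM there (log2 difference -1.81, -2.21 to -1.46) and Ccl2 at 1.07 and 0.38. The sections came from different animals and captured different parts of the injured side.

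To place the ligands relative to phagocytes, bins rich in Cd68, a lysosomal protein of phagocytes, and Lyz2, the lysozyme of myeloid cells, were marked. A rich bin had at least 2 UMIs of these genes together and at least 3 other such bins within a window of 5 by 5 bins. The injured side had 289 rich bins at 3 days and 920 at 28 days, and the opposite side 5 and 0. Within 150 µm of a rich bin, 10 of 10 ligands were at least 2-fold higher than on the rest of the injured side at 3 days, against 14.2% of 14536 genes, and 9 of 10 at 28 days, against 16.1% of 14518 genes. The median log2 ratio was 2.46 over the ligands and 0.04 over all genes at 3 days, and 3.50 and -0.06 at 28 days. This area held 15.0% of all injured-side UMIs at 3 days but 71.8% of the Ccl7 UMIs and 62.0% of the Ccl2 UMIs. At 28 days it held 13.7% of all UMIs, 79.8% of Ccl2 and 66.4% of Ccl3. Bins in this area were shallower, with a median of 626.5 UMIs at 3 days, where bins further away had 858, and 471 and 591 in the 28 days section. The rich bins themselves were deeper than those around them. At 3 days 289 rich bins held 296887 UMIs, and the 2176 bins within 50 µm held 1657145. At 28 days 920 rich bins held 1265002 UMIs, and the 2982 bins within 50 µm held 1812601. The part of depth in differences between rich bins and their surroundings was not tested.

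**Figure D2:**
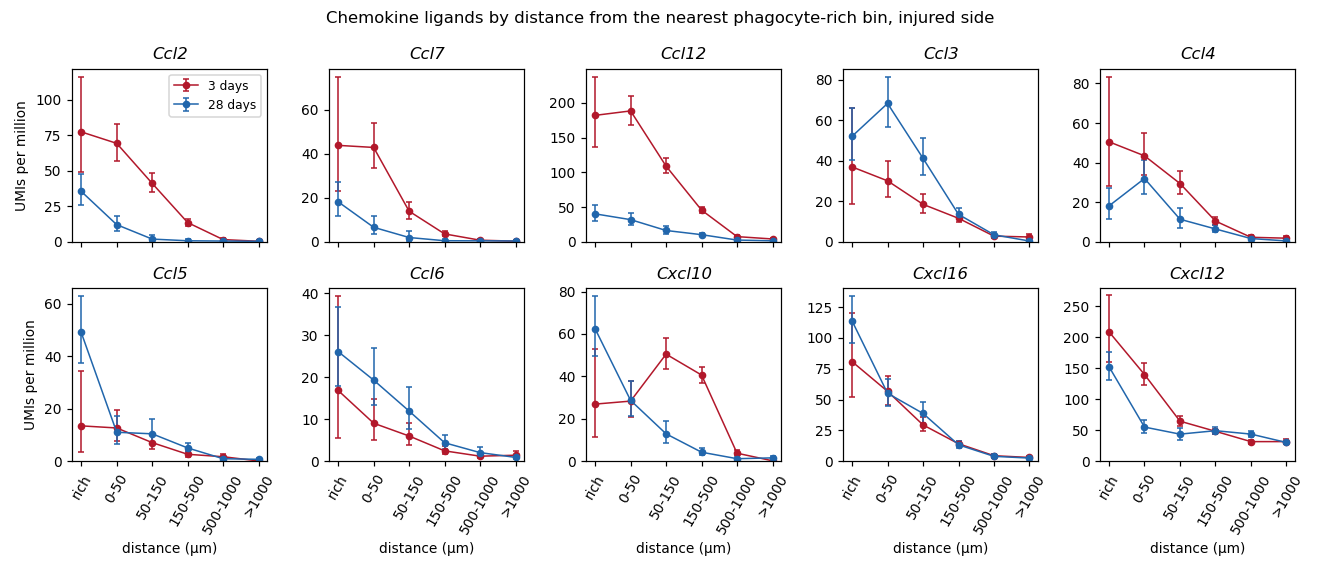
Level of each ligand in CPM by distance from the nearest phagocyte-rich bin (rich bins, then bands up to beyond 1000 µm) on the injured side at 3 days (red) and 28 days (blue), with exact Poisson 95% intervals. Most ligands were highest in or next to rich bins, whereas Cxcl10 at 3 days was highest at 50 to 150 µm (50.5) and still at 40.7 at 150 to 500 µm.

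The rich bins were not a single area. Linked within 150 µm, they formed 3 fields of at least 25 rich bins in each section. At 3 days these were a dorsal field of 115 rich bins (median 1.17 mm from the midline), a lateral field of 82 rich bins at the array border (2.00 mm) and a field of 39 rich bins at the far surface of the brain, 4.91 mm from the dorsal field along the array rows. At 28 days there was a medial field at the cavity wall (110 rich bins, 0.70 mm from the midline), a deep field (213 rich bins, 1.63 mm from the midline and a median of 567 µm from any tissue edge) and a lateral field at the cavity wall (597 rich bins, 3.04 mm, 71.6 µm from an edge). The 3 days lateral field lay a median of 459 µm from any tissue edge, not counting the array border. Field names hold within a section, and the lateral fields were not matched between sections. These fields were defined after the data were seen. The ligands divided among them unequally, as follows for each group.

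**Figure D3:**
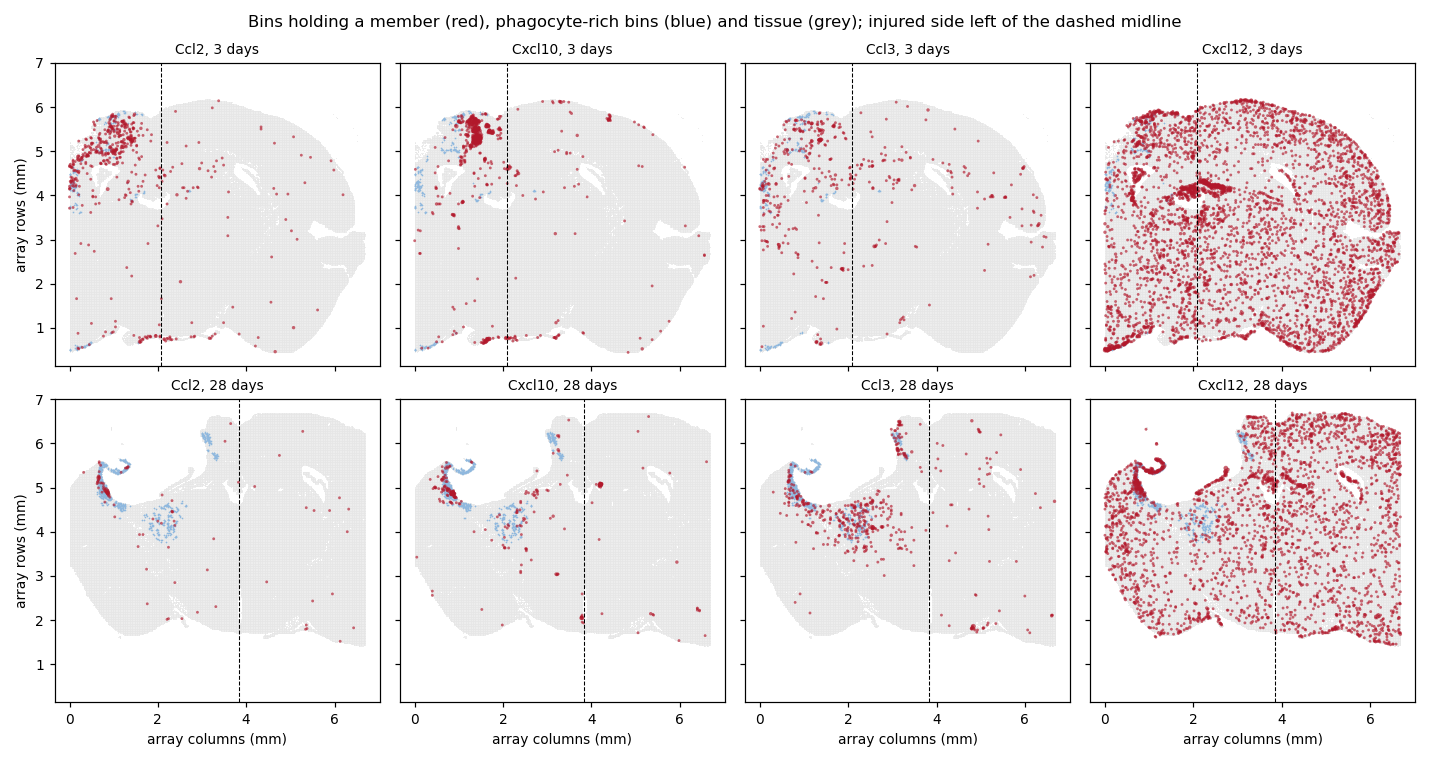
Bins holding Ccl2, Cxcl10, Ccl3 or Cxcl12 (red, larger with more UMIs), phagocyte-rich bins (blue) and tissue (grey) on array columns and rows in mm, at 3 days (top) and 28 days (bottom), with the midline dashed. At 3 days Cxcl10 forms a compact patch beside the dorsal rich bins; at 28 days Ccl3 fills the deep field while Ccl2 and Cxcl10 line the lateral cavity wall, and Cxcl12 is spread over the whole section.

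Among the monocyte attractants, Ccl2 and Ccl7 were the most closely tied to rich bins. At 3 days Ccl2 was at 77.5 CPM in rich bins, 69.4 within 50 µm, 41.2 at 50 to 150 µm, 13.6 at 150 to 500 µm and 0.44 beyond 1000 µm. Ccl7 ran from 43.8 in rich bins to 13.9 at 50 to 150 µm and 0.33 beyond 1000 µm. At 28 days Ccl2 was at 35.6 in rich bins, 12.1 within 50 µm and 1.99 at 50 to 150 µm, and Ccl7 at 18.2, 6.62 and 1.99. The median Ccl2 UMI lay in a rich bin at 28 days and 107 µm from one at 3 days. Of the 28 days fields, the lateral one held 60 Ccl2 and 31 Ccl7 UMIs (30.1 and 15.6 CPM), the deep one 8 and 7, and the medial one 0 and 0. Ccl2 was thus 4.33-fold higher in the lateral than in the deep field (log2 of deep over lateral -2.11, -3.47 to -1.12). Against a floor of 3 counts in the medial field it was at least 5.21-fold higher in the lateral field. Neutrophil markers were also highest in the lateral field, with 229 CPM in the lateral, 2.48 in the deep and 15.4 in the medial field, as were fibroblast markers (1091, 40.4 and 30.8). Monocyte-derived macrophage markers had the same highest field (102, 12.4 and 13.5), and so did border-associated macrophage markers (93.4, 42.9 and 36.6). Their part in the result was not tested.

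Many opposite-side UMIs of Ccl7 and of some other ligands lay at tissue edges. At 3 days 21 of 43 opposite-side Ccl7 UMIs (48.8%, exact binomial 33.3 to 64.5%) and 23 of 89 of Ccl2 (25.8%, 17.1 to 36.2%) were within 50 µm of an edge, where 2.82% of all UMIs were. The share was 33.8% for Ccl5 (22 of 65) and 33.1% for Cxcl10 (41 of 124), and 1.45% for Ccl3. Without edge bins on both sides, the 3 days log2 side ratio was 4.0 for Ccl7 and 3.88 for Ccl2.

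Genes sharing bins were found by comparing bins that held a ligand with bins that did not, all within 150 µm of rich bins on the injured side. At 3 days, of 6445 genes tested against the 255 Ccl2 bins, Ccl7 led with a log2 ratio of 2.91 (2.27 to 3.48), followed by Rsad2, an interferon-induced antiviral gene, Ccl12, Ccl4 and the cytokine Il1b. In the 117 Ccl7 bins the leading genes were Sema3g, Avp, Inmt, Tfpi2 and Mgp, of which Sema3g and Mgp are known from arteries and Avp is a hypothalamic neuropeptide. Fibroblast collagens were also frequent there, with Col3a1 at 2.22 and Col1a1 at 1.81. As lists, monocyte-derived macrophage markers had log2 ratios of 1.46 in Ccl2 bins and 1.5 in Ccl7 bins. Fibroblast markers differed between the pair, with 0.62 in Ccl2 bins and 1.71 in Ccl7 bins. The area pooled the separate fields, and the fibroblast list was at 1672 CPM in the dorsal, 68.1 in the lateral and 3194 in the far-surface field. In the same order these fields held 106, 43 and 4 Ccl2 UMIs and 64, 11 and 7 Ccl7 UMIs. The part of the field in these partners was not tested.

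At 28 days Ccl2 and Ccl7 had partners in common. Cxcl10 led in both, with 3.44 (2.81 to 4.0) in Ccl2 bins and 4.15 (3.49 to 4.73) in Ccl7 bins, and Ptx3, a pentraxin of innate defence, was in both leading sets. Timp1, Saa3 and Has2 completed the set of Ccl2, and Ccl2, Lcn2 and Tnfaip2 that of Ccl7. Ccl7 bins also held the neutrophil attractants Cxcl1 (4.87) and Cxcl2 (6.18, from 8 UMIs), and Ccl2 bins held Cxcl1 at 3.98. Ligand-holding bins were deeper in UMIs in that section, with medians of 2271 for Ccl2 and 2185 for Ccl7 bins. Levels were compared as CPM, which does not undo the choice of deep bins. Thinning to 300 UMIs left 13 Ccl2 and 8 Ccl7 bins, too few for a value. Opposite-side Ccl7 bins at 3 days were led by Ptgds, Ranbp3l, Aldh1a2, Itih2 and Myoc, with log2 ratios of 5.13 to 5.60, and the fibroblast list was at 4.76.

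Ccl12 differed from its neighbours on the chromosome in being spread more widely. At 3 days it had 182 CPM in rich bins, 188 within 50 µm, 45.7 at 150 to 500 µm and 4.20 beyond 1000 µm, and 335 of its 1408 injured-side UMIs came from bins with 3 or more of them. The most in any bin was 14. The dorsal field held 378 Ccl12 UMIs (306 CPM), the lateral field 44 (103) and the far-surface field 17 (43.9). Near rich bins, the genes leading in the 497 Ccl12 bins at 3 days were Ccl4, Phf11b, Fcgr1, Cd72 and Cxcl10, and the microglia marker Tmem119 was at 1.54. The microglia list was at 0.88 and the monocyte-derived macrophage list at 0.33, which is the reverse of the order in Ccl7 bins (0.19 and 1.5). Of the opposite-side Ccl12 UMIs at 3 days, 98 lay 150 to 500 µm and 154 lay 500 to 1000 µm from rich bins, at 27.3 and 15.5 CPM, against 2.69 beyond 1000 µm. The genes leading in the opposite-side Ccl12 bins were Ptx3, the proliferation genes Mki67, Ube2c and Prc1, and Oxt, which encodes the hypothalamic hormone oxytocin. Gfap, the astrocyte filament gene, was at 2.50 there and Tnf at 5.73, from 6 UMIs. As lists, border-associated macrophages were at 2.50, interferon-stimulated genes at 2.06, fibroblasts at 1.95 and disease-associated phagocytes at 1.93. Microglia were at 1.86, choroid plexus at 1.33 and astrocytes at 1.2, and the part of these lists was not tested.

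Ccl3 and Ccl4 are close relatives that lie next to each other. At 3 days Ccl3 was at 37.1 CPM in rich bins and 30.2 within 50 µm, and at 28 days at 52.2 in rich bins, 68.4 within 50 µm and 0.43 beyond 1000 µm. Ccl4 at 28 days had the same shape, 18.2 in rich bins and 32.0 within 50 µm. The deep field of the 28 days section held 124 Ccl3 UMIs (102 CPM), the medial field 35 (67.5) and the lateral field 77 (38.7). Ccl3 was 2.64-fold and Ccl4 2.87-fold higher in the deep than in the lateral field (log2 1.40, 0.98 to 1.83, and 1.52, 0.85 to 2.24). Ccl2, Ccl7, Ccl5, Cxcl10 and Cxcl12 stood the other way round between these fields. The deep field also had more of the microglia list (2517 against 1667 CPM) and the disease-associated phagocyte list (8550 against 5398). The oligodendrocyte list differed more, at 10312 against 4047 CPM. Bins of the deep field were shallower than those of the lateral field (median 419 against 929 UMIs). The part of these in the result was not tested.

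The pair shared bins in every area examined. Near rich bins, Ccl4 in Ccl3 bins had a log2 ratio of 3.63 (3.02 to 4.16) at 3 days and 2.75 (1.96 to 3.43) at 28 days. In the opposite hemisphere it was 6.43 (5.25 to 7.32, from 10 UMIs) at 3 days, and Ccl3 in Ccl4 bins was 8.39 (7.40 to 9.20, from 14 UMIs) at 28 days. At 3 days the other leading genes near rich bins were Ccl12, Fyb, Cxcl10 and Sh3bp2 for Ccl3, and Ccl12, Tlr2, Ch25h and Cd180 for Ccl4. At 28 days those of Ccl3 were Il1b, Rgs1, Il1a and Plau, with Tnf at 3.55 from 6 UMIs and the lipoprotein lipase gene Lpl at 1.37. The microglia list was higher in bins of both ligands at 3 days, with 1.33 (1.08 to 1.57) for Ccl3 and 1.42 for Ccl4 (0.76, -0.03 to 1.39, for Ccl3 in bins thinned to 300 UMIs), while border-associated macrophage markers were at -2.24 and -1.10. Opposite-side Ccl3 bins at 3 days were led, after Ccl4, by Irf8, a myeloid transcription factor gene, Tlr2, the complement gene C1qa and Apbb1ip. At 28 days Tlr2, Ly86, Spp1, Tyrobp and C1qa led there.

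Ccl5, made by T cells and many activated cells, and Ccl6, a macrophage ligand of Ccr1, were the sparsest at 3 days. Ccl5 was found as 102 UMIs and Ccl6 as 97 UMIs on the injured side, and Ccl6 never exceeded 2 UMIs in a bin. Within 150 µm of rich bins both were higher in the later section: Ccl5 had 9.08 CPM at 3 days and 20.2 at 28 days, and Ccl6 had 7.48 and 18.1. At 28 days Ccl5 was concentrated in the rich bins themselves, at 49.0 against 11 within 50 µm, and in the lateral field (64 UMIs, 32.1 CPM) rather than the deep one (20 UMIs, 16.5 CPM). With rich bins of 3 UMIs, Ccl5 at 3 days was no higher near them than elsewhere on the injured side (a log2 ratio of 0.00 in place of 2.51). Ccl6 was not detectably different between these fields (37 and 32 UMIs, log2 of deep over lateral 0.51, -0.22 to 1.23).

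The neighbours of Ccl5 and Ccl6 differed by section. At 28 days the fibroblast genes Dcn (3.11) and Col3a1 (2.80) and the adventitial marker Pi16 led in Ccl5 bins, with Slamf7 and Myoc, and the fibroblast list was at 2.79. Ccl6 bins were led by Mmp12, the macrophage elastase, with Saa3, Siglec1, Lgals3 and Il1a, and the disease-associated phagocyte marker Gpnmb was at 1.62. At 3 days Ptgds, the prostaglandin D synthase of meninges and choroid plexus, was among the leading genes of both, at 2.50 in Ccl5 bins and 2.26 in Ccl6 bins. The 60 opposite-side Ccl5 bins at 3 days were led by the MHC class II genes H2-Eb1 (6.61, 6.17 to 6.99), H2-Aa, H2-Ab1 and Cd74, which serve antigen presentation. The same bins had the fibroblast list at 4.28 (3.93 to 4.58) and the choroid plexus list at 4.05 (3.97 to 4.13), whose part in the result was not tested. T and NK cell markers were sparse, with 57 and 64 UMIs in all on the injured and opposite side at 3 days and 118 and 39 at 28 days, so their sharing of bins rests on few counts. By side the list had a log2 ratio of 0.98 (0.43 to 1.51) in the 3 days section and of 1.87 (1.35 to 2.44) in the later one, where 4 of the 5 genes that reached 20 UMIs were past 2-fold. In the lateral field of that section it was at 20.6 CPM and in the deep field at 10.7, beside 32.1 and 16.5 for Ccl5, and its part in the Ccl5 level was not tested. Near rich bins at 3 days, 3 of its UMIs lay in Ccl5 bins (log2 4.53, 1.95 to 6.08) and 2 in Ccl6 bins (4.11, 0.69 to 5.85), and on the opposite side 3 lay in Ccl5 bins (6.46, 3.93 to 7.86).

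At 3 days Cxcl10 was highest at 50 to 150 µm from rich bins. Its level was 26.9 CPM in rich bins, 28.4 within 50 µm, 50.5 at 50 to 150 µm, 40.7 at 150 to 500 µm and 0.22 beyond 1000 µm. Of its 746 injured-side UMIs, 422 (56.6%) lay in a single square of 496 µm, which held 4.12% of all injured-side UMIs and 1 rich bin. In that square Cxcl10 was at 273 CPM, against 12.0 in injured-side bins outside it and 150 to 500 µm from rich bins (log2 ratio 4.51, 4.22 to 4.81). The square itself was not limited by distance, and its median Cxcl10 UMI lay 322 µm from a rich bin. The square was the densest of its size for Cxcl10 and was chosen for that level, so its own ratio is a description. Measured in the same square, Ccl4 was at 45.9 against 6.92 CPM and Ccl12 at 153 against 35.7. Ccl2 (34.9 and 10.7), Ccl3 (32.3 and 9.19) and Ccl5 (9.69 and 1.98) were higher there too. Ccl7 (3.88 and 3.56), Ccl6 (1.29 and 2.57) and Cxcl16 (17.4 and 13.5) were not detectably different, and Cxcl12 was lower (20.7 and 51.3). The densest squares of Ccl2, Ccl12, Ccl3, Ccl4 and Ccl5 overlapped that of Cxcl10. Their centres lay 0.85 to 0.94 mm from the midline, and that of Cxcl10 0.54 mm.

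Neuron markers and interferon-stimulated genes were higher in the patch, and most other marker lists were lower. The summed neuron list was at 8476 CPM in the square against 3370 in the compared bins, and disease-associated phagocyte markers were at 40.04 against 192. Monocyte-derived macrophage markers were at 13.6 against 27.5 and neutrophil markers at 0.65 against 14.4. The microglia list was at 403 against 498. Lists of other tissue were also lower, with choroid plexus at 27.1 against 18694 CPM, fibroblasts at 16.1 against 233, ependyma at 29.1 against 277 and oligodendrocytes at 2281 against 6731. The bins were deeper, with a median of 1536 against 676 UMIs. Rsad2 was at 116 against 12.5, Isg15 at 226 against 35.9 and Iigp1 at 34.2 against 4.15 CPM. The NF-kB target list was not detectably different, at 119 against 120 CPM (log2 -0.01, -0.25 to 0.21). The part of tissue make-up and depth in the Cxcl10 level was not tested.

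Interferon-stimulated genes were the partners of Cxcl10 in each area at 3 days. Near rich bins, the 158 Cxcl10 bins were led by Rsad2 (3.72, 3.29 to 4.12), Oasl1, Ifit3 (2.78), Ifi205 and Isg15 (2.56), of 6204 genes tested. The list of 10 interferon-stimulated genes was at 2.19 (2.08 to 2.29) there, and at 3.08 (2.98 to 3.17) in bins 150 to 500 µm from rich bins. Across the midline Isg15, Usp18, Irf7, Iigp1 and Ifit1 led, and the list was at 4.49. Those opposite-side bins also had the fibroblast list at 3.96 (3.67 to 4.23), or 1199 against 77.2 CPM, whose part was not tested. The list was also higher by side, with 10 of 10 genes at least 2-fold higher on the injured side at 3 days and 8 of 10 at 28 days (medians of 2.18 and 1.44), against 10.5% and 6.43% of all genes. No UMI of the neutrophil list lay in the Cxcl10 bins near rich bins, against 32.6 CPM in the other bins there.

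The start of the Cxcl10 gene is shown because these partners are interferon targets. The stretch runs from 220 to 61 bases before the annotated start (RefSeq, GRCm38.p6, chr5:92348950-92349109, minus strand, printed 5′ to 3′ along the gene). Capitals mark matches to TTCNNTTTC, from the core of the interferon-stimulated response element, and to GGNNNTTCC, from the NF-kB site.

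Cxcl10: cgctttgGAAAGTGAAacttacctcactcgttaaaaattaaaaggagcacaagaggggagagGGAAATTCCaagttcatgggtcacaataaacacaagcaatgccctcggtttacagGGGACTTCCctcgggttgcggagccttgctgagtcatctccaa

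Both strands were searched over the 250 bases before each start. The interferon element matched at -213 to -205, as its reverse complement, and the NF-kB letters matched at -158 to -150 and at -103 to -95. Promoters were listed for 5 of the 10 ligands (Cxcl10, Cxcl12, Ccl12, Ccl6 and Ccl3). The interferon letters were found in Cxcl10 and Ccl3 and in 7.13% of the 32851 promoters listed. The NF-kB letters were found in Cxcl10 and Ccl12 and in 15.7% of all promoters. These are matches of letters and not measured binding.

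At 28 days Cxcl10 was placed otherwise. It was highest in rich bins (62.5 CPM), then 28.7 within 50 µm and 12.9 at 50 to 150 µm, and 118 of its 225 injured-side UMIs lay in the lateral field (59.2 CPM). The deep field held 19 (15.7) and the medial field 5 (9.64). The densest Cxcl10 square of 496 µm, chosen for that level, held 102 UMIs. Neutrophil markers were there at 317 CPM, against 20.8 in other bins within 150 µm of rich bins. Monocyte-derived macrophage markers were at 90.4 against 30.7. Neuron markers were higher too (3103 against 1888), as was the NF-kB target list (412 against 257). Lower there were, among others, the astrocyte (8545 against 9510), microglia (1438 against 1812), fibroblast (60.5 against 593) and oligodendrocyte lists (3186 against 8811). The interferon-stimulated list was at 644 against 633 (log2 0.03, -0.09 to 0.14). Bins of the square were deeper, with a median of 1500 against 445 UMIs. The part of tissue make-up and depth in the Cxcl10 level was not tested here either. The leading partners of Cxcl10 in 115 bins near rich bins were Ccl2 (3.74, 2.92 to 4.47), Ccl7 (3.90, 2.79 to 4.89), Ptx3, Lcn2 and Timp1. Interferon-stimulated genes were at 0.73 (0.50 to 0.95) there. They were at 4.17 in the 37 Cxcl10 bins of the opposite side at 28 days. Ifit3 led there at 5.03, followed by Gfap (2.66), Mt2, Aqp4 (2.20) and Ddn. The 50 opposite-side UMIs were clumped, with 13 in bins of 3 or more. When rich bins needed 3 UMIs, which left 53 on the injured side at 3 days, Cxcl10 turned from higher near rich bins (log2 1.43, 1.2 to 1.66) to lower (-2.17). With rich bins that needed both genes it was 2.93.

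Cxcl16 was higher near rich bins in both sections, with a log2 ratio over the rest of the injured side of 2.42 at 3 days (interval 2.15 to 2.68) and 3.53 in the later section (3.26 to 3.81). Its median UMI lay 160 µm from a rich bin at 3 days and 50.6 µm at 28 days. Within 150 µm of rich bins it was at 40.2 CPM at 3 days and 63.3 at 28 days, and in rich bins at 80.8 and 114. At 28 days the lateral, deep and medial fields had 80.8, 72.6 and 55.9 CPM, and no pair of these fields differed beyond counting error. At 3 days the dorsal field had 72.8 CPM, the lateral field 70.5 and the far-surface field 31.01, and the dorsal field was above the far-surface one (log2 1.18, 0.36 to 2.24). At 28 days Ccl2 had 30.1, 6.60 and 0 in the lateral, deep and medial fields. At 3 days 56 of 218 opposite-side Cxcl16 UMIs (25.7%, 20.03 to 32.0%) lay within 50 µm of a tissue edge. Cxcl16 bins there were led by Cd74 (4.62), H2-Eb1 (4.62), Slc6a12, H2-Aa and H2-Ab1. The same bins had the fibroblast list at 3.22 (714 against 76.6 CPM) and the choroid plexus list at 2.81 (9462 against 1345 CPM), whose part was not tested. At 28 days Cd74 and H2-Ab1 led again, with the choroid plexus gene Ttr at 3.82, and the choroid plexus list was at 3.82. Near rich bins at 28 days Cxcl2, Saa3, Mmp3, Anpep and Aqp1 led, and Gpnmb was at 1.58.

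Cxcl12 was the ligand that was not focal. It had 1732 and 3071 UMIs on the injured and opposite side at 3 days and 1606 and 1605 at 28 days, or 46.1, 37.0, 43.3 and 35.5 CPM. It was nonetheless higher in rich bins, at 209 CPM at 3 days and 153 at 28 days, against 31.7 and 30.3 beyond 1000 µm. Fibroblast markers moved with it. The field at the far surface had the most Cxcl12 of the 3 days fields (117 UMIs, 302 CPM) with 3194 CPM of the fibroblast list, and the lateral field had the least (15 UMIs, 35.2 CPM) with 68 of that list. At 28 days the lateral field had 132 Cxcl12 CPM and 1091 of the fibroblast list, and the deep field 43.7 and 40.4. The part of fibroblast content in the Cxcl12 level was not tested.

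The bins holding Cxcl12 were rich in fibroblast markers near rich bins and on the opposite side. At 3 days the area near rich bins took in the far-surface field, with 117 of its 531 Cxcl12 UMIs. Near rich bins at 3 days Slc26a7, Osr1, Slc22a8, Ptgdr and Aldh1a2 led, and at 28 days Igf2, Col1a1, Lum, Mmp3 and Clec3b. The fibroblast list was at 2.24 (2.16 to 2.32) and 2.34 (2.21 to 2.46), the mural cell list at 1.07 and 0.68 and the microglia list at -0.39 and -0.29, while monocyte-derived macrophage markers were at -0.45 and 1.67. In the opposite hemisphere at 3 days Pla2g2f, Dsp, Il27ra, Lct and Lypd8 led. Dsp (3.61) and C1ql2 (2.43), both markers of dentate granule cells on the list, were high there. As lists, fibroblasts were at 2.13, choroid plexus at 1.35, dentate granule cells at 1.19, mural cells at 1.15 and endothelium at 1.01. At 28 days Dsp led at 2.59, followed by Slc6a13, Nfatc4, Inmt and Fmod, and the fibroblast list was at 1.83 and the dentate granule cell list at 1.02. Cxcl12 was lower in bins of Ccl4 at 3 days (-0.97, -2.39 to -0.02) and of Cxcl10 (-0.79, -1.81 to -0.03).

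**Figure D4:**
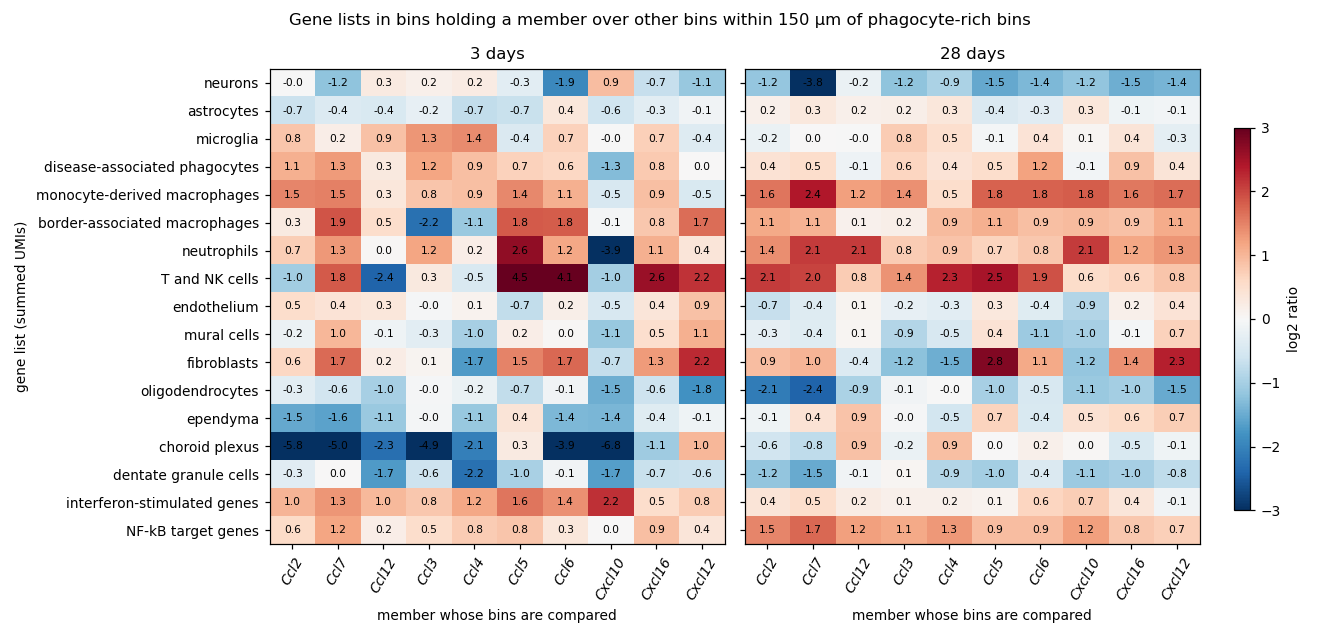
Log2 ratio of the summed level of each gene list in bins holding a ligand over bins without it, within 150 µm of phagocyte-rich bins on the injured side, at 3 days (left) and 28 days (right). Cxcl10 stands out at 3 days for interferon-stimulated genes (2.19) and Cxcl12 in both sections for fibroblast markers (2.24 and 2.34).

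Paired with each other, the ligands fell into combinations that differed in part between the sections. At 3 days Ccl3, Ccl4 and Ccl12 shared bins: Ccl12 was at 3.11 (2.78 to 3.41) in Ccl3 bins and 3.10 (2.83 to 3.36) in Ccl4 bins. Ccl2 and Ccl7 formed a pair in both sections, with Ccl7 at 2.91 in Ccl2 bins at 3 days and 3.56 (2.16 to 4.64) at 28 days. Cxcl10 shared bins with Ccl12, Ccl4 and Ccl3 at 3 days, whereas Ccl2 in Cxcl10 bins was at 0.53 (-0.34 to 1.22) near rich bins and at 3.43 (2.85 to 3.95) at 150 to 500 µm from them. At 28 days Ccl2 and Ccl7 were its leading partners and Ccl3 was at -0.49. In the Ccl12 bins of that section Ccl2 was at 2.95 (1.92 to 3.80) and Cxcl10 at 2.40 (1.64 to 3.04). The ratios near rich bins pool the separate fields of a section. At 28 days the lateral field held 60 of 71 Ccl2, 31 of 39 Ccl7 and 118 of 157 Cxcl10 UMIs of that area. The part of the field in these pairings was not tested. Ligand-holding bins were deeper in most cases (median 1388 against 617 UMIs for Cxcl10 at 3 days). In bins thinned to 300 UMIs, Ccl4 in Ccl3 bins was at 2.78 (0.26 to 4.18) and Ccl7 in Ccl2 bins at 3.56 (2.43 to 4.46) at 3 days. Ccl2 in Cxcl10 bins was at 0.89 (-5.00 to 2.82) at 3 days and 5.85 (3.20 to 7.65) at 28 days when thinned. That 28 days value rests on few counts, as thinning left 13 Ccl2 UMIs in the whole area and 36 Cxcl10 bins. Few counts also lie behind the thinned 3 days values of Ccl4 in Ccl3 bins (46 bins) and of Ccl2 in Cxcl10 bins (45 bins). For the other pairs the part of depth was not tested.

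**Figure D5:**
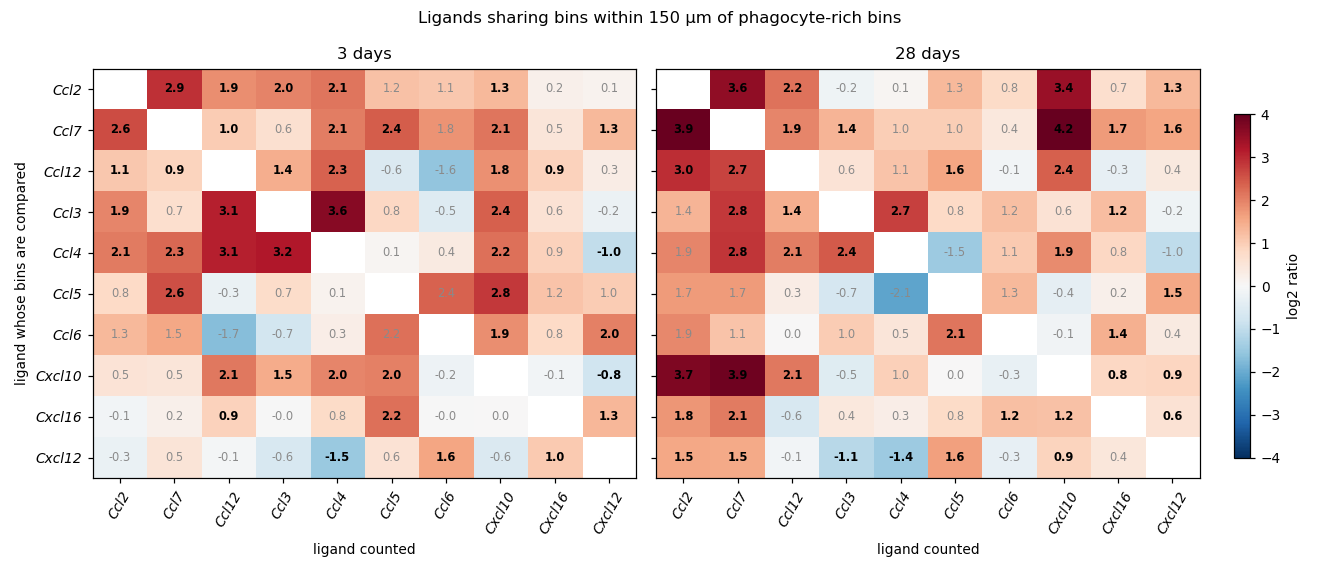
Log2 ratio of each ligand (columns) in bins holding another ligand (rows) over bins without it, within 150 µm of phagocyte-rich bins, at 3 days (left) and 28 days (right); bold values have intervals that exclude 0. Ccl3, Ccl4 and Ccl12 group at 3 days, and Ccl2, Ccl7 and Cxcl10 group at 28 days. Ccl2 (2.95) and Cxcl10 (2.40) were also high in Ccl12 bins at 28 days.

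Receptors of these ligands were partly higher on the injured side. Of 21 chemokine receptor genes, 14 reached 20 UMIs at 3 days and 16 at 28 days, and 7 and 8 of these were at least 2-fold higher on the injured side, against 10.5% and 6.43% of all genes. Their medians were 1.07 and 0.89, and those of all genes 0.14 and 0.04. Ccr2, the receptor of Ccl2, Ccl7 and Ccl12, had 179 injured-side and 68 opposite-side UMIs at 3 days (log2 2.53) and 95 and 26 at 28 days (2.13). Ccr1 had 72 and 23 UMIs (2.77), then 35 and 13 (1.68). Cxcr4, the receptor of Cxcl12, was higher on the injured side in both sections (1.85 and 1.99), while Ackr3 was not (0.06 and 0.16). Cxcr3 and Cxcr6, the receptors of Cxcl10 and Cxcl16, were sparse, with 4 and 8 injured-side UMIs at 3 days and 17 and 26 at 28 days. Of 3 proteases that process chemokines, none was 2-fold higher or lower on the injured side in either section, with Adam10 at 0.17 and 0.08 and Adam17 at 0.64 and 0.40.

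Other chemokine ligands were set against the opposite side in the same way. Of the 26 on the list, 24 were counted, 17 reached 20 UMIs in each section, and 8 at 3 days and 6 at 28 days were at least 2-fold higher on the injured side, with medians of 0.80 and 0.62. Of all genes, 10.5% and 6.43% were. The difference from the 10 ligands was not tested. Ppbp, a platelet chemokine, had 95 injured-side and 3 opposite-side UMIs at 3 days, and 7 and 2 at 28 days. Cxcl5, a neutrophil attractant, had 45 and 32 UMIs (log2 1.63), then 326 and 39 (3.33). The neuronal Cx3cl1 was lower on the injured side in both sections, at -0.76 and -0.33. Among NF-kB target genes, 3 of 9 at 3 days and 6 of 9 at 28 days were at least 2-fold higher on the injured side, against the same shares of all genes.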

How the data were processed

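Per the labels and file headers, the authors deposited raw UMI counts per gene and 16 µm bin made with Space Ranger 4.0.1 (build mm10), with no normalization. The members and the 20 gene lists (15 of cell markers, 5 of pathways) were chosen with earlier results of these data known. Bins under 100 UMIs were left out. Counts were summed per area, scaled to CPM, and 0.5 UMI was added before each log2 ratio, which has an exact conditional binomial interval; single levels have exact Poisson intervals and shares exact binomial ones, all at 95%. Side and time ratios used genes with at least 20 UMIs over both areas. Named genes were the members, the list genes and, per member with at least 30 bins holding it, the 5 genes with the highest lower bound among those with at least 10 UMIs there. Cd68 and Lyz2 placed the rich bins and are not results. Tissue edges, the rich-bin fields, the Cxcl10 square, the time comparison near rich bins and the 150 to 500 µm comparison were added after seeing the data. Scripts were tested on simulated data. Alternatives are given in the closing section. Work was done in matplotlib 3.10.9, scipy 1.17.1, pandas 2.3.3 and numpy 2.4.6 under Python 3.11.15.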

Additional observations from a re-analysis of the deposited data

How the results depend on the processing

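No paired analysis was possible because each time point was 1 section. Among single ligands, 2 values changed sign: Cxcl10 near rich bins at 3 days went from 1.43 to -2.17 when rich bins needed 3 UMIs, and the injured-side difference of Cxcl16 between 28 and 3 days from 0.11 to -0.25 when counted per bin. The count of ligands past 2-fold by side was 9 in both sections under every alternative run, and that near rich bins ranged from 8 to 10. The median side ratio at 3 days was 2.04 with the opposite side limited to the injured side's width, which could not be applied at 28 days because the opposite side was the narrower one. With rich bins of 3 UMIs the median ratio near rich bins was 1.51 at 3 days and 2.93 at 28 days. The count of ligands at least 2-fold lower on the injured side at 28 days was 3 in bins within 150 µm of rich bins, in place of 5. Bin sharing was recomputed for the values that follow and for microglia markers in Ccl3 bins and Ccl2 in Cxcl10 bins, and none of these changed sign. The interferon-stimulated list in Cxcl10 bins was 2.32 within 300 µm and 3.08 at 150 to 500 µm at 3 days, and at 28 days 0.96 within 300 µm, 0.39 in rich bins alone, 1.02 in bins thinned to 300 UMIs and 2.28 at 150 to 500 µm. Fibroblast genes in Cxcl12 bins were 2.56 within 300 µm, 1.25 in rich bins alone and 2.90 at 150 to 500 µm at 3 days, and 2.59, 1.0 and 2.01 at 28 days, with 3.10 when thinned. Ccl4 in Ccl3 bins was 2.78 thinned and 4.66 at 150 to 500 µm at 3 days, and 5.10 at 150 to 500 µm at 28 days. Ccl7 in Ccl2 bins was 3.56 thinned and 3.57 at 150 to 500 µm at 3 days, and 2.06 in rich bins alone at 28 days. The 150 to 500 µm area, the time comparison near rich bins and the removal of edge bins were chosen after seeing the data. Some ligands had under 30 bins in rich bins alone or after thinning, which gave no value. The cause of these shifts was not tested. Ligands with under 100 UMIs on a side limit what could be detected.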
